A study of Caenorhabditis elegans with 2 samples.

Results

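Chromosome X away from tRNA genes held 14582 distinct candidate peaks of the zinc finger protein SEA-2, out of 80192 on the 6 nuclear chromosomes under the same exclusion, and 56 of them were in the authors' optimal peak list, which held 0.491% of the candidates of all chromosomes. These 56 regions, called X peaks here, were chosen in 2 steps. A candidate of the pooled ranked list was a member when its summit lay on X and over 500 bp from any annotated tRNA gene, and a member was selected when the optimal list also held it. The autosomes gave 65610 candidates and 338 selected peaks by the same rule. As deposited, X held 14852 such candidates and the same number of selected peaks. That count was taken before candidates with a summit within 200 bp of one already kept were dropped. It also keeps candidates that passed the authors' threshold but were absent from the optimal list, which the 14582 leave out.

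SEA-2 binding was mapped by ChIP-seq, the sequencing of DNA that is precipitated with a protein, in whole young adult Caenorhabditis elegans, 64 hours old, grown from larvae that had been synchronised by starvation at the L1 stage after bleaching. All animals were of strain OP586. It carries the transgene wgIs586, in which sea-2 is joined to TY1, EGFP and 3xFLAG tags beside an unc-119(+) rescue gene, in animals with the tm4063 allele of unc-119. An anti-GFP antibody is named in the sample descriptions, and sea-2 is given under antibody. The 2 biological replicates formed 1 group, so every contrast here is between regions of the same libraries, and since no precipitation of another protein was analysed, SEA-2 binding and a general affinity of a region cannot be told apart. The genotype lists no allele of the animals' own sea-2, the tissues of the whole animal were mixed, and the sex of the animals was not collected.

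SEA-2 is known as an autosomal signal element, a protein whose dose is weighed against proteins encoded on X to set sex. The X signal elements repress xol-1, the switch gene of that pathway, and autosomal elements activate it. In animals with a pair of X chromosomes the dosage compensation complex then loads on X at recruitment sites, which carry a short sequence motif, and lowers X transcription. SEA-2 is also known to act in developmental timing, through the mRNA of lin-28.

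The sequences below are 100 bp either side of the summits of the 6 strongest X peaks that overlapped thresholded peaks of both replicates. They are shown because the most reproducible members differ in the letters they carry. All are on the plus strand of ce11, which is the WBcel235 sequence, 5′ to 3′, read from the RefSeq genome file. Capitals mark any of 3 motifs on either strand, and overlapping matches run together. The first is CGCGCA. Another is the purine repeat GAGAGA. The last of them is GCGCAGG.
Peak 1, intergenic, chrX:11094088-11094288: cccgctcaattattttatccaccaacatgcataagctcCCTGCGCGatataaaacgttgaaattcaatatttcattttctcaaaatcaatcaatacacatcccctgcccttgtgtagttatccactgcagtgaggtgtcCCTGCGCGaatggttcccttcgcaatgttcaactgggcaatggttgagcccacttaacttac
Peak 2, upstream of epn-1, chrX:14818885-14819085: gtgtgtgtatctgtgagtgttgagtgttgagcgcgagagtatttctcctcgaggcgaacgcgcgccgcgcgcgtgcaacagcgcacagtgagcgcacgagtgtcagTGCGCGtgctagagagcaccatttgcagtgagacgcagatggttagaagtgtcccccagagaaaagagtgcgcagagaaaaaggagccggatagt
Peak 3, upstream of ftt-2, chrX:11605882-11606082: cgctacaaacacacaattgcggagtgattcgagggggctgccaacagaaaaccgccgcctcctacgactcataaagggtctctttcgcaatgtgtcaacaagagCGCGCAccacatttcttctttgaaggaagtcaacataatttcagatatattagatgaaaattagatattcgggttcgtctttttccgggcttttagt
Peak 4, intron of F09A5.3, chrX:13145194-13145394: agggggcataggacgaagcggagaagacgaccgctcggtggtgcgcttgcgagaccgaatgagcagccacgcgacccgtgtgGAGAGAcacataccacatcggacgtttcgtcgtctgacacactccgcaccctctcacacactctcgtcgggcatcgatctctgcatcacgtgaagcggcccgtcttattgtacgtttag
Peak 5, exon of mom-1, chrX:6296382-6296582: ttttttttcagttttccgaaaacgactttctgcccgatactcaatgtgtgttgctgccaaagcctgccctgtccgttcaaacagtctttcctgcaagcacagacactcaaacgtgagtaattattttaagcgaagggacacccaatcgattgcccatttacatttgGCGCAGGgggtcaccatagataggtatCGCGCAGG
Peak 6, exon of pks-1, chrX:5429447-5429647: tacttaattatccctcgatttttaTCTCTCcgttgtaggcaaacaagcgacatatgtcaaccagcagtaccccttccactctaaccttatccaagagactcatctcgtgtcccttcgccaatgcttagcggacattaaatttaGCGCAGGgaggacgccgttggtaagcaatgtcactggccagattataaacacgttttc

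The windows of peaks 1, 5 and 6 held GCGCAGG, which is part of the motif of dosage compensation recruitment sites. Peaks 2 and 3 held CGCGCA without it, and peak 4 held GAGAGA alone among the letters searched. CGCGCA and GCGCAGG share 5 letters, so a run such as CGCGCAGG counts for both.

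Across all X peaks GCGCAGG occurred 10 times, in 8 peaks. The next lines give each site with 17 bases on either side, read 5′ to 3′ on the strand that carries the motif, which is in capitals. They are shown so that the flanks can be compared.
Peak 1, chrX:11094109-11094149, minus strand: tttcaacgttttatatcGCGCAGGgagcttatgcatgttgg
Peak 1, chrX:11094210-11094250, minus strand: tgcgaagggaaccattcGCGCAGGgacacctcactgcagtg
Peak 5, chrX:6296531-6296571, plus strand: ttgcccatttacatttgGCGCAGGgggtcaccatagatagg
Peak 5, chrX:6296559-6296599, plus strand: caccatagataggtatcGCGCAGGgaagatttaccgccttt
Peak 6, chrX:5429573-5429613, plus strand: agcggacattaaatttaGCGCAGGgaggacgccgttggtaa
Peak 7, chrX:14525884-14525924, minus strand: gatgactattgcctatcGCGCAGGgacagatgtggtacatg
Peak 9, chrX:2997107-2997147, minus strand: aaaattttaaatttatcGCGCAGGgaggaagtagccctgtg
Peak 11, chrX:16056634-16056674, minus strand: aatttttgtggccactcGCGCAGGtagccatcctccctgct
Peak 40, chrX:10647796-10647836, plus strand: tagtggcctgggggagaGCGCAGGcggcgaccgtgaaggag
Peak 42, chrX:4209250-4209290, minus strand: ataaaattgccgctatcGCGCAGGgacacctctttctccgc

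The base before the motif was C at 7 of the 10 sites and the base after it was G at 8, and at 3 sites the next 3 bases were GAG. The sites lay between 2 and 97 bp from the summit, with a median of 44 bp.

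The 56 X peaks had a median deposited signal of 93.6, with quartiles of 85.5 and 110.1 and a range of 10.1 to 184. This value comes from the authors' peak caller, and the sources used here do not give its scale or the read depth behind it. The 338 autosome peaks had nearly the same median, 93.7, but a longer upper end, at 394.9. Among X candidates away from tRNA genes that were not selected, the median was 25.2 and the highest 89.3. All 28 X candidates with a signal of 93.7 or more were selected, against 169 of 175 on the autosomes. Candidates that passed the authors' threshold but were absent from the optimal list had been left out beforehand. They include a further 9 X candidates, all above that signal, at 100.2 to 2113.

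Each replicate's own ranked list had a candidate at every one of the 56 X peaks. Signals there ranged from 6.69 to 120.3 in replicate 1, with a median of 50.5, and from 14.6 to 80.6 in replicate 2, with a median of 45.3. The medians over all candidates of the replicates were 18.97 and 16.3. In both replicates 36 of the 56 X peaks stood in the top 2% of candidates. The X peaks were selected from the pooled data of these same replicates, so high signals and places in each are partly set by that selection. These values are a description and no independent support. Signals of separate lists were not scaled to each other, so they are given side by side, with no test between them.

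**Figure D1:**
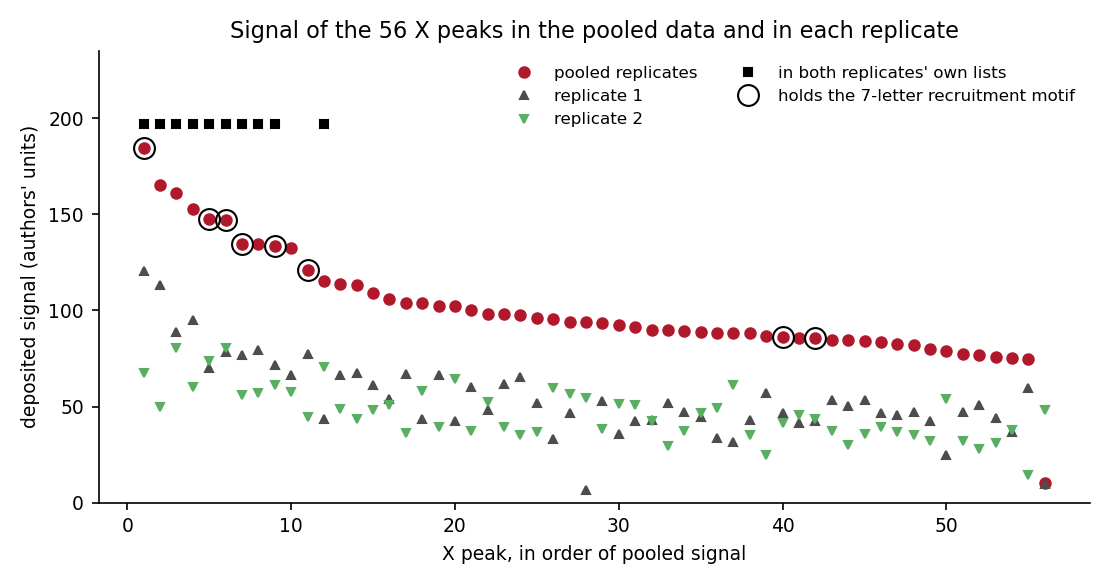
Deposited signal (authors' units) of each of the 56 X peaks, in order of pooled signal, in the pooled replicates (circles), replicate 1 (upward triangles) and replicate 2 (downward triangles). Squares mark the 10 peaks in both replicates' own thresholded lists, which are peaks 1 to 9 and 12. Open circles mark the 8 peaks with GCGCAGG, the part of the recruitment motif that was searched, which are peaks 1, 5, 6, 7, 9, 11, 40 and 42.

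Replicate support was concentrated at the strong end of the list. That is partly set in advance, since the pooled signal that orders the list comes from the same replicates. Of the 56 X peaks, 10 overlapped thresholded peaks of both replicates by at least 1 bp, 11 were shared with replicate 1 alone, 9 with replicate 2 alone, and 26 (46.4%) were in no replicate list. The share in both lists was 17.9% on X against 16.3% (55 of 338) on the autosomes, a difference that did not pass (odds ratio 1.12, 95% interval 0.474 to 2.42, Fisher's exact test, two-sided, p = 0.846). The conservative list held 41 of the X peaks. The deposited q value was above 0.05 for 22 of the 56 X peaks and for 175 of the 338 autosome peaks. The 22 were not only weak peaks. They included the 6 strongest X peaks, with a −log10 q value of 1.005 at peak 1 and 1.263 at peak 6.

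Chromosome X contributed a smaller share of its candidates than the autosomes did, but the difference did not pass after adjustment. On X 56 of 14582 candidates were selected (0.384%, exact Clopper-Pearson 95% interval 0.290 to 0.498%), against 338 of 65610 on the autosomes (0.515%, 0.462 to 0.573%). The odds ratio was 0.744 (95% interval 0.550 to 0.991), with an unadjusted p of 0.0422 by a two-sided Fisher's exact test and an adjusted p of 0.170 over the 6 chromosomes. Regions of the same 2 libraries are not biological replicates: each p-value here compares sets of regions, and all intervals cover counting error only.

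The replicates' own lists did not repeat this in the same way. With replicate 1 alone, 22 of 9285 X candidates (0.237%) and 129 of 40802 autosome candidates (0.316%) were selected, with 0.301% over all, an odds ratio of 0.749 (0.453 to 1.18, Fisher's exact test, adjusted p = 0.918). With replicate 2 alone, 20 of 8736 X candidates (0.229%) and 87 of 40760 autosome candidates (0.213%) were selected, with 0.216% over all. Its odds ratio was 1.07 (0.624 to 1.76, Fisher's exact test, adjusted p = 0.895), on the other side of 1.

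The direction of the contrast changed with the tRNA exclusion. Before it X held 88 selected peaks and the autosomes 357, with an odds ratio of 1.10 (0.857 to 1.39, Fisher's exact test, adjusted p = 0.692). The exclusion took 32 of the 88 X peaks (36.4%) and 19 of the 357 autosome peaks (5.32%), while it took 1.67% of the unselected X candidates and 0.594% of the unselected autosome candidates. X carries 276 of the 612 annotated tRNA genes. At the edge of the rule, the closest X peak kept lay 505 bp from a tRNA gene, with a signal of 77.1, and the next lay 1405 bp away. The X peaks just excluded lay at 136 bp, with a signal of 5.92, and at 81 bp, with 95.4.

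**Figure D2:**
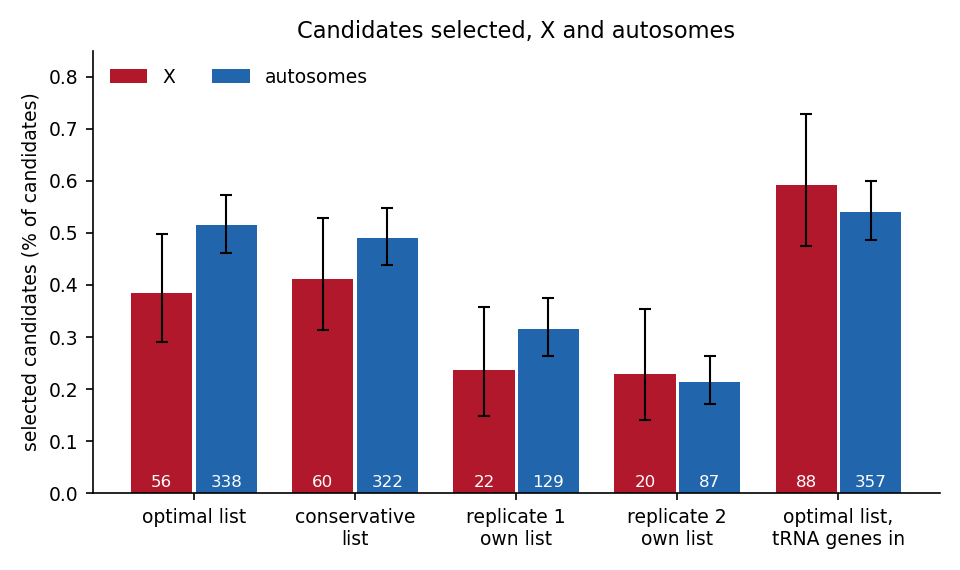
Share of candidates selected on X (left of each pair) and on the autosomes (right), in percent of candidates, with exact Clopper-Pearson 95% intervals and the number selected inside each bar. X was lower in the optimal list (0.384% against 0.515%), the conservative list (0.411% against 0.491%) and replicate 1 (0.237% against 0.316%), and higher in replicate 2 (0.229% against 0.213%) and with tRNA genes included (0.592% against 0.541%); no adjusted test passed.

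The chromosomes differed in what they offer. X held 823 candidates and 3.16 X peaks per Mb, against 795 candidates and 4.09 peaks per Mb on the autosomes. Promoter windows, taken as 1000 bp before to 200 bp after a protein-coding start, covered 17.6% of X and 22.3% of the autosomes, and X held 154 protein-coding genes per Mb against 209. Within promoter summits alone the odds ratio of X was 0.723 (Fisher's exact test, adjusted p = 0.359), and outside them it was 0.823 (adjusted p = 0.466).

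With the main settings X peaks lay at promoters more often, and in introns less often, than the other X candidates. The promoter call was lost under most of the alternatives given below. Each summit had 1 location: a promoter window came first, then an exon of any gene, coding or not, then an intron. So 4 X peaks counted under exons lay only in exons of non-coding genes. Among them were both peaks within introns of dim-1. No other order was tried. Promoter windows held 19 of 56 summits (33.9%) against 17.5% of unselected X candidates. The odds ratio was 2.43 (95% interval 1.32 to 4.34), with an adjusted p of 0.0101 over 4 locations by a two-sided Fisher's exact test. For introns the counts were 7 (12.5%) against 25.9%, with an odds ratio of 0.408 (0.156 to 0.907, adjusted p = 0.0424 by the same exact test). This intron call rests on 7 X peaks and was not examined under the alternatives used for promoters. Neither exons, with 13 X peaks (23.2%) against 33.04%, nor intergenic sequence, with 17 (30.4%) against 23.6%, passed this exact test (adjusted p = 0.205 for exons, 0.268 for intergenic sequence). By the same exact test, the promoter call was lost with a window of 500 bp before to 100 bp after the start (odds ratio 2.08, adjusted p = 0.0802) and with one of 2000 to 500 bp (1.23, adjusted p = 0.476). It was also lost with the X peaks of higher signal, with 7 promoter summits (1.66, adjusted p = 0.305), and with either replicate's own list, where it was 2.62 in replicate 1 with 8 promoter summits and 2.497 in replicate 2 with 7 (exact test, adjusted p = 0.135 in replicate 1 and 0.281 in replicate 2).

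The pattern of locations on X was not shown to differ from that on the autosomes. There promoters held 43.2% of peaks and 21.6% of unselected candidates, and the promoter odds ratio on X was 0.879 times that on the autosomes (0.485 to 1.59, likelihood ratio test, n = 80192 candidates, adjusted p = 0.701). It was 0.565 with the narrower promoter window and 0.502 with the peaks of higher signal, and did not pass in either. For intergenic sequence the ratio was 1.504 (0.791 to 2.86, n = 80192, adjusted p = 0.589). For exons it was 1.14 and for introns 0.651, and by this test 0 of the 4 locations had an adjusted or an unadjusted p under 0.05.

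**Figure D3:**
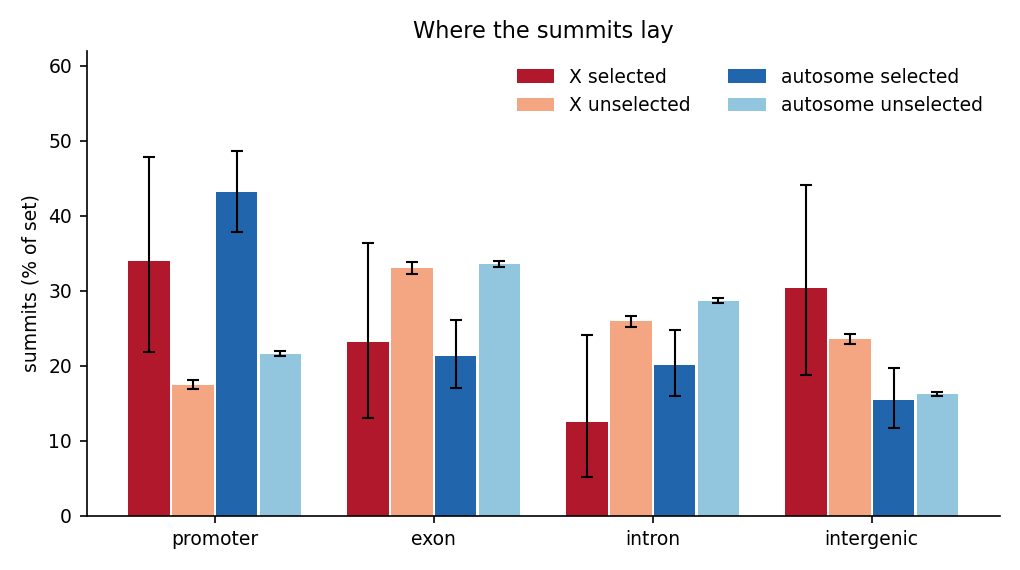
Share of summits, in percent of each set, in promoter windows, exons, introns and intergenic sequence for selected and unselected candidates of X and of the autosomes, with exact Clopper-Pearson 95% intervals. X peaks stood at 33.9% in promoters against 17.5% of unselected X candidates, and autosome peaks at 43.2% against 21.6%.

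The strongest X peak, at chrX:11094036-11094339, was intergenic, and the nearest protein-coding start, that of W02H3.3, was 3998 bp away. Its signal was 184 in the pooled data, 120.3 in replicate 1 and 67.5 in replicate 2, and it ranked 24 among all candidates away from tRNA genes. Of the 20 strongest X peaks 9 were intergenic, 5 lay in promoter windows, 3 in exons and 3 in introns. Promoters thus made up a minority of the strongest X peaks.

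Promoter windows held 5 of the 20 strongest X peaks. The second peak, 471 bp upstream of epn-1, which encodes the endocytic adaptor epsin, had a signal of 165 in the pooled data, 113.1 in replicate 1 and 49.7 in replicate 2. The third, 563 bp upstream of ftt-2, a gene of the 14-3-3 family of phosphoprotein binders, had 161, 88.9 and 80.6. Both overlapped thresholded peaks of both replicates. Peak 7, 731 bp upstream of nspc-17, had a pooled signal of 135, with 76.9 in replicate 1 and 55.8 in replicate 2. Peak 10 lay 15 bp upstream of hsp-3, which encodes an Hsp70 chaperone of the endoplasmic reticulum, with 133, 66.4 and 57.7. It was in the thresholded list of replicate 1 only. Peak 14, 144 bp upstream of F17H10.1, had 113, 67.5 and 43.8 and was in neither replicate's list.

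Peaks inside genes came next. Peak 5 lay in an exon of mom-1, which encodes the Porcupine-like enzyme that prepares Wnt proteins for secretion, with a signal of 148 in the pooled data, 69.9 in replicate 1 and 73.5 in replicate 2. Peak 6 lay in an exon of pks-1, a polyketide synthase gene, with 147, 78.4 and 80.4, and its nearest protein-coding start, that of C41A3.2, was 15197 bp away. Both overlapped thresholded peaks of each replicate. Peak 9, in an intron of Y41G9A.17, had 133, 71.8 and 61.2. Peak 20 lay in an intron of abts-4, nearest to the start of mdl-1, a gene of the MAD family of Max partners, and had 102, 42.4 and 64.3.

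Intergenic members of the strong end included peak 8, nearest to C36E6.8 at 134, 79.7 and 56.9, whose window consisted to 100% of 31-mers that recur in the nuclear genome. Peak 16, near the same start, had 106 and 71.3% recurring 31-mers. Peak 12, 5810 bp from the start of C30E1.4, had 115 in the pooled data, 43.8 in replicate 1 and 70.4 in replicate 2 and overlapped both lists. Others lay nearest to T27A8.7 (121), C02B4.3 (114), ZC53.1 (104), aakg-3, a gamma subunit gene of the energy sensor kinase AMPK (104), and gst-11, a glutathione S-transferase gene (102).

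Recurring sequence was not a general feature of the X peaks. Over 50% of the 31-mers recurred in 5 of 56 X peaks (8.93%) against 4.16% of unselected X candidates, and in 13.3% of autosome peaks against 5.98% of their unselected candidates. No 31-mer recurred in 47 of the 56. These shares leave out the 9 X candidates that passed the authors' threshold but were absent from the optimal list. All 9 had over 50% of recurring 31-mers.

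The genes epn-1 and dim-1 had 2 X peaks each. The second epn-1 peak lay in an intron with a signal of 81.97. At dim-1, which encodes an immunoglobulin-domain protein of muscle, the peaks had signals of 109 and 10.1 and lay 205 bp apart within introns of dim-1, over exons of the non-coding genes C18A11.11 and C18A11.12. The weaker is the lowest of the 56 and ranks 70535 of all 80192 candidates. It shares its replicate 2 candidate with the stronger one. Both also overlap the same thresholded peak of replicate 1, and both are counted among the 11 X peaks shared with replicate 1 alone.

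The 9 members described in this paragraph were singled out after their values were seen. Promoter peaks lay 127 bp upstream of the actin gene act-4 (96.2), 149 bp upstream of acr-2, an acetylcholine receptor subunit gene (83.5), and 598 bp upstream of spat-3, a gene of a Polycomb-like ubiquitin ligase (83.98). Another lay 306 bp upstream of puf-9, a Pumilio family gene of RNA binding and developmental timing (79.02). Exon peaks lay in his-24, a linker histone gene (86.7), in the homeobox gene ceh-60 (79.98) and in the collagen gene col-184 (98.2). These signals are from the pooled data. The act-4, acr-2, spat-3, his-24 and ceh-60 peaks were in neither replicate's own list. Those of puf-9 and col-184 were in replicate 2's list only. The conservative list lacked the peaks of puf-9, his-24 and ceh-60. The puf-9 peak had 25.1 in replicate 1 and 54.2 in replicate 2. Of the spat-3 window, 53.2% was recurring sequence. Signals between 70 and 100 made up 34 of the 56 X peaks. Peak 55, at R09F10.3 with a signal of 74.9, and peak 28, near W05H9.4 with 93.96, stood high in 1 replicate's list and low in the other's. At peak 55 replicate 1 had 59.8 and replicate 2 14.6, and at peak 28 they had 6.69 and 54.3.

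None of the X peaks lay at a listed X-linked gene of the sex pathway, and few X genes carried one at all. Counting each gene body with 1000 bp upstream, 37 of 2731 X protein-coding genes held an X peak (1.35%), so a count of 0 among 6 genes is not a result about them. The same window of 0 of 6 listed genes (xol-1, sex-1, ceh-39, fox-1, sdc-1 and sdc-2) held an optimal peak or a thresholded peak of either replicate. The strongest candidate at xol-1 had a signal of 34.6 and ranked 20460 of 80192, and the nearest X peak, at dim-1, was 8649 bp from the gene. At fox-1, an X signal element that encodes an RNA binding protein, the strongest candidate had 75.04 and ranked 523, close to the signals of the weakest X peaks. At the X signal elements sex-1, a nuclear hormone receptor gene, and ceh-39, a ONECUT homeobox gene, the strongest had 22.8 and 19.03. At sdc-1 and sdc-2, whose products take part in loading the dosage compensation complex, they had 49.97 and 43.3. Candidates had to pass a minimum to be listed and whole young adults were used, so these values do not show that binding was absent.

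Of 8 listed X-linked genes of developmental timing, 2 carried an X peak, beside the 1.35% of all X protein-coding genes. The 2 shares are not alike: the list includes the microRNA genes let-7 and mir-84, and genes were not matched for length or number of candidates. One lay in an intron of daf-12, the nuclear hormone receptor gene of the dafachronic acid pathway, with a signal of 86.04 in the pooled data, 46.9 in replicate 1 and 41.6 in replicate 2. This daf-12 peak was in neither replicate's own list. The other lay 168 bp upstream of kin-20, a casein kinase 1 gene related to fly doubletime, with 91.6, 42.6 and 50.8, and was in replicate 2's own list. The other 6 had unselected candidates only. The strongest had 68.2 at lin-14, 56.6 at let-7, 50.7 at mir-84, 55.5 at hbl-1, 32.01 at daf-9 and 56.6 at nhr-25. Both lists were chosen with earlier results of these data known and were not tested.

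No X peak lay near a gene of a small structural RNA other than tRNA, and few X candidates did. Within 500 bp of a snoRNA gene lay 0 of 56 X peaks, against 35 unselected X candidates (0.241%), so the 0 does not depart from that background. Taken as 3 counts of the total, it allows a share of up to 5.36%. On the autosomes 33 of 338 peaks lay near a snoRNA gene (9.76%), against 0.533% of unselected candidates. Near snRNA genes lay 0 X peaks, against 4 unselected X candidates (0.0275%), and 11 autosome peaks (3.25%), against 0.162% of unselected ones. Near rRNA genes lay 0 X peaks and 2 autosome peaks. Without summits near snoRNA, snRNA, rRNA and miRNA genes the odds ratio of X against the autosomes was 0.831 (0.609 to 1.12, Fisher's exact test, adjusted p = 0.704, 54 X peaks).

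MicroRNA genes, whose short RNAs repress target mRNAs, had 2 X peaks nearby (3.57%), against 0.413% of unselected X candidates. On the autosomes there was 1 such peak (0.296%), against 0.294% of unselected candidates, and the difference was not tested. Peak 4 lay in an intron of F09A5.3 beside cel-mir-54, cel-mir-55 and cel-mir-55b, with signals of 153 in the pooled data, 94.9 in replicate 1 and 60.3 in replicate 2. Peak 53 lay inside cel-mir-271, 439 bp upstream of unc-78, whose product disassembles actin with cofilin, with 75.8, 44.04 and 30.97. Annotated non-coding RNA genes of the class ncRNA lay within 500 bp of 18 X peaks (32.1%) and of 12.5% of unselected X candidates, against 18.05% and 5.99% on the autosomes. At 12 X peaks the summit was inside an exon of such a gene.

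The searched part of the recruitment motif was more strongly enriched in X peaks than in autosome peaks, each against its own unselected candidates. The whole motif was not searched. GCGCAGG, searched on both strands within 100 bp of the summit, was present in 8 of 56 X peaks (14.3%) against 84 of 14526 unselected X candidates (0.578%). On the autosomes it was present in 7 of 338 peaks (2.07%) against 438 of 65272 (0.671%). The odds ratio was 28.6 (95% interval 11.3 to 63.5) on X and 3.13 (1.24 to 6.58) on the autosomes. Their ratio was 9.15 (3.10 to 27.1, likelihood ratio test, n = 80192 candidates, unadjusted p = 1.27e-04, adjusted p = 3.81e-04 over 3 motifs). This test was added after the counts had been seen. GCGCAGG had been listed because it is part of a motif with a known role on X.

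Each replicate's own list showed the same order. In replicate 1 6 of 22 X peaks held the motif (27.3%), against 5 of 129 autosome peaks (3.88%), and in replicate 2 5 of 20 (25%) against 2 of 87 (2.30%). The ratio of odds ratios was 10.05 in replicate 1 (likelihood ratio test, n = 50087 candidates, adjusted p = 0.00270) and 13.1 in replicate 2 (n = 49496, adjusted p = 0.00659). These lists share peaks and are not independent. The motif was no denser on X as a whole, with 20.1 sites per Mb against 19.9 on the autosomes. The size of the ratio moved with the search window, to 16.4 within 50 bp of the summit and 4.86 within 250 bp. With GC content in the fit the ratio was 12.4 (n = 80192, adjusted p = 1.06e-04), and without the last letter it was 1.65 (0.804 to 3.39, adjusted p = 0.377).

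**Figure D4:**
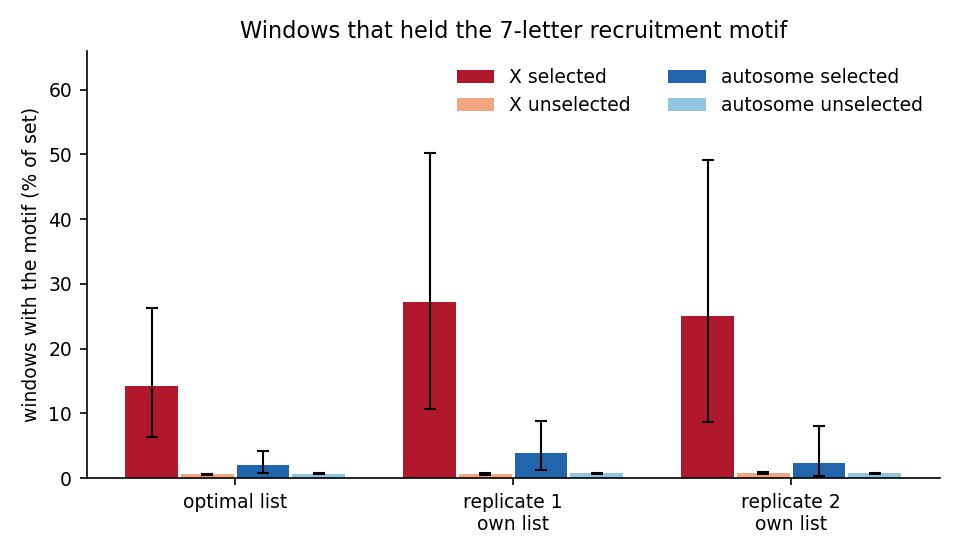
Share of windows, in percent of each set, that held GCGCAGG within 100 bp of the summit, for selected and unselected candidates of X and of the autosomes, in the optimal list and in each replicate's own list, with exact Clopper-Pearson 95% intervals. X peaks stood at 14.3%, 27.3% and 25%, autosome peaks at 2.07%, 3.88% and 2.30%, and unselected candidates under 1% throughout.

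Among the 8 X peaks with the motif, 6 were within the 11 strongest, while the daf-12 peak and peak 42 were below the median of all X peaks. Their signals ranged from 85.7 to 184 with a median of 134, against a median of 92.1 for the 48 X peaks without it. Of the 8, 5 overlapped thresholded peaks of both replicates, as did 5 of the 48. Their GC content ranged from 34.3 to 54.2% with a median of 43.03%, against a median of 53.7% in the 48. These differences were not tested. They lay in intergenic sequence (3), exons (2), introns (2) and a promoter window (1). Besides peaks 1, 5, 6, 7 and 9 they were peak 11 near T27A8.7, the daf-12 peak and peak 42 near F20B6.9 (85.7). Lengthened by the commonest neighbouring base on each side, the motif became CGCGCAGGG. It was present in 4 X peaks (7.14%) against 10 unselected X candidates (0.0688%). The second site of peak 5 also reads so but ends 1 base past the window, and is not among the 4. On the autosomes it was in 0 of 338 peaks, which allows up to 0.888% taken as 3 counts of the total, against 13 unselected candidates (0.0199%). As the longer form was built from the X peaks, its share there is a description.

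The other 2 motifs were not shown to differ between X and the autosomes. CGCGCA was present in 28.6% of X peaks against 4.30% of unselected X candidates, and in 19.5% of autosome peaks against 3.85% (ratio of odds ratios 1.47, 0.770 to 2.80, likelihood ratio test, n = 80192 candidates, adjusted p = 0.377). Of the 16 X peaks with CGCGCA, 6 also held GCGCAGG. The purine repeat GAGAGA was present in 14 X peaks (25%) against 11.7%, and in 28.1% of autosome peaks against 11.6% (ratio 0.844, 0.440 to 1.62, n = 80192, adjusted p = 0.606). None of the 3 motifs was present in 29 X peaks.

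X peaks were rich in G and C. The 201 bases around a summit had a mean GC content of 51.99% ± 7.12 (SD, n = 56) in X peaks, against 39.8% ± 7.11 (SD, n = 14526) in unselected X candidates. The autosome means were 49.2% ± 7.26 (SD, n = 338) for peaks and 40.1% ± 7.08 (SD, n = 65272) for unselected candidates. At equal GC the odds ratio of X was 0.784 (0.589 to 1.04, likelihood ratio test, n = 80192 candidates, p = 0.0858).

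In the optimal list the odds of selection were tied more steeply to GC on X. Each 10 percentage points of GC went with 8.19 times the odds of selection on X (5.76 to 11.6) and 4.63 times on the autosomes (4.06 to 5.28), a ratio of 1.77 (1.22 to 2.57, likelihood ratio test, n = 80192 candidates, p = 0.00246). At 50% GC and over, 34 of 1207 X candidates (2.82%) and 155 of 5635 autosome candidates (2.75%) were selected. From 35 to 40% GC, 0 of 3899 X candidates were selected, against 28 of 17510 on the autosomes (0.160%). Taken as 3 counts of the total, the limit of that 0 is 0.0769%, and the exact interval drawn in the plot of GC bins reaches 0.0946%. Under 35% GC the shares were nearly alike, with 2 of 3799 on X (0.0526%) and 10 of 15875 on the autosomes (0.0630%). From 40 to 45% GC they were 0.248% on X and 0.340% on the autosomes, and from 45 to 50% they were 0.537% and 0.897%. The call was lost with the conservative list (ratio 1.41, n = 80192, p = 0.0562) and with the lists of replicate 1 (1.29, p = 0.394) and replicate 2 (1.01, p = 0.974).

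**Figure D5:**
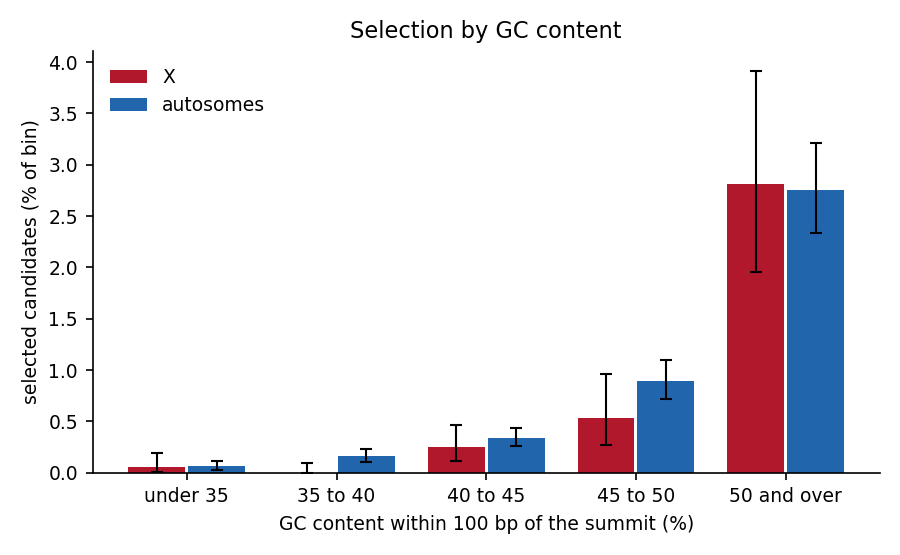
Share of candidates selected, in percent of each bin, on X (left) and on the autosomes (right) by GC content within 100 bp of the summit, with exact Clopper-Pearson 95% intervals. The shares lay at 2.82% and 2.75% in the bin of 50% and over, at 0% and 0.160% from 35 to 40%, and at 0.0526% and 0.0630% under 35%.

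The X peaks were spread along the whole chromosome. The 6 equal sections held 9, 11, 11, 5, 8 and 12 of them, at 0.228 to 0.464% of their candidates, and bins of 1 Mb held 0 to 6. The bin without a peak was the first, with 811 candidates. Neighbouring X peaks lay a median of 233 kb apart, with gaps from 205 bp to 1202 kb, and 4 of the 55 gaps were under 10 kb.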

How the data were processed

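The 2 replicates were precipitated from whole young adults. The authors deposited peak lists: ranked candidates and thresholded lists of each replicate and of the pooled replicates. The signal, the −log10 q value and, in ranked lists, the score (−log10 of the irreproducible discovery rate, IDR) are as the authors deposited them. Aligner, peak caller, versions and depths: not given in the sources used here. Coordinates are ce11, per the labels, and 0 candidates lay past a chromosome end. Genes came from Ensembl release 115.

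Candidates with a summit within 200 bp of one already kept were dropped. Selected peaks were kept first, by falling signal, and unselected candidates after them, so a selected peak took priority over a stronger unselected candidate. Of 523 candidates at the IDR threshold of 0.01, recognised in a second pooled ranked list, 70 were absent from the optimal list of 453 and were left out. Shares were compared with Fisher's exact test, with Benjamini-Hochberg adjustment over 6 chromosomes, 4 locations or 3 motifs. Differences between X and the autosomes came from logistic regression with likelihood ratio tests. A call is an adjusted p under 0.05. The p-values of the GC fits and of the share in both replicate lists were not adjusted and were held to the same limit. GC, motifs and 31-mers that recur were read within 100 bp of the summit. Simulated selections were run for the X odds ratio, the GC slope and the promoter difference, but not for the motif test. The tests ran in scipy 1.17.1 and statsmodels 0.14.6 with Python 3.11.15, pandas 2.3.3 and numpy 2.4.6, and figures in matplotlib 3.10.9.

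The members, gene lists and motifs were chosen with earlier results of these data known, and the motif comparison was added after its counts were seen. Named were the 20 strongest X peaks, those in both replicates' lists, those near snoRNA, snRNA, rRNA or miRNA genes, genes with 2 X peaks and the listed genes; the others were named after their values were seen. Alternatives changed the tRNA distance, the dropping of close summits, the overlap, the promoter and GC windows, the peak list and the neighbours left out. They also used each replicate's own lists.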

Additional observations from a re-analysis of the deposited data

Results flagged for a closer look

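The selection of candidates rose more steeply with GC content on X than on the autosomes in the optimal list, with a ratio of slopes of 1.77 per 10 percentage points. The difference between the chromosomes was itself tested, and it is given in the report with the lists in which it did not pass.

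The motif GCGCAGG differed between X and the autosomes in its link to selection, with a ratio of odds ratios of 9.15. It rests on 8 X peaks and 7 autosome peaks.

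Some X candidates outside the comparisons had high signals. The authors' optimal list lacked 9 X candidates that passed the IDR threshold, all over 500 bp from a tRNA gene and all with over 50% of recurring 31-mers. Their signals ranged from 100.2 to 2113, the highest at chrX:15810995-15811177. The highest signal of an X peak was 184.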

How the results depend on the processing

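No paired analysis was possible because the 2 replicates form 1 group, so no groups share replicate numbers. Of 15 alternatives to the X odds ratio in the optimal list, 13 kept its direction and its side of the threshold (0.723 to 1.10 over all). It reversed without the tRNA exclusion (1.10, Fisher's exact test, adjusted p = 0.692), and over the lists of single replicates it ranged from 0.749 to 1.07. The replicate 1 odds ratio reversed without the exclusion (1.05, exact test, adjusted p = 0.841), and that of replicate 2 moved to 1.64 (exact test, adjusted p = 0.132). At equal GC the single replicates gave 0.778 to 1.10. The steeper GC slope lost its call with the conservative list (1.41) and with single replicates (1.01 to 1.29). The promoter odds ratio on X lost its call with the narrow window (2.08), the wide window (1.23), peaks from the median signal upward (1.66) and single replicates (2.497 to 2.62), and kept it with the conservative list (2.37). The promoter ratio of X to autosomes did not pass in any of 6 alternatives (0.502 to 0.991). The GCGCAGG ratio kept its call in 8 of 9 alternatives, all added after seeing the data, and lost it without the last letter (1.65); it was 16.4 within 50 bp and 4.86 within 250 bp, and single replicates gave 10.05 to 13.1. Causes of these changes were not tested, though fewer peaks remain in single replicates. The number of X peaks and the unknown depth limit what can be detected.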
